A study of Danio rerio with 9 samples.

Results

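The genes described here encode the Aurora and Polo kinases of mitosis and their nearest partners: aurka, aurkb, cdca8, birc5a, birc5b, incenp, plk1 and tpx2, followed through single primordial germ cells (PGCs) of zebrafish embryos. They were taken by their symbol in the deposited expression table, and 7 of the 8 were matched there, out of 32266 annotated genes. No row of the table has the symbol incenp, so this gene was not analysed here. All 7 matched genes were among the 9329 genes with an FPKM of 1 or more in 3 or more of the 9 cells. FPKM counts the sequenced fragments of a gene relative to its exon length and to all mapped fragments of the cell, so levels of different genes can be set side by side.

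The cells came from transgenic fish of the AB strain carrying a kop-egfp-nanos3-3ʹUTR insert, which makes PGCs fluoresce green, and they were picked by hand with a capillary. The groups are PGCs of the shield stage at 6 hpf (hours post fertilization), of the 3-somite stage at 11 hpf and of the prim-5 stage at 24 hpf, with 3 cells each, called 6_1 to 24_3. A single embryo gave the 3 cells of its stage, which makes every stage 1 sample. Differences between stages were therefore not tested, and values are given for each cell. GEO labels the tissue of all 9 cells as gonad, whereas by the study's methods the whole embryo was dissociated at 6 and 11 hpf and the trunk at 24 hpf.

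Aurora and Polo kinases drive entry into mitosis and spindle assembly and act in cytokinesis. Aurora A works at centrosomes and on spindle microtubules, where Tpx2 binds and activates it. Aurora B is the enzyme of the chromosomal passenger complex, in which Incenp is the scaffold and Borealin (cdca8) and Survivin (birc5a, birc5b) bring the complex to centromeres and later to the midzone. Polo kinase 1 acts from mitotic entry to cytokinesis, and Bora helps Aurora A to activate it. In zebrafish, maternal aurkb and maternal birc5b are needed for cleavage furrows of the early embryo. Transcripts of such genes are loaded into the egg, and in cycling cells many of them peak in G2 and M phase.

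In 6 of the 7 genes the mean was lower at 24 hpf than at 11 hpf by more than 1 on the log2 scale, and birc5a was the exception. A mean lower by at least as much was found in 31.5% of the 9329 genes kept. At 6 hpf the 7 genes summed to 2006, 1797 and 2207 FPKM in 6_1, 6_2 and 6_3. The sum was 1959, 1233 and 1225 FPKM in 11_1, 11_2 and 11_3 and came to 345, 132 and 207 FPKM in 24_1, 24_2 and 24_3. The lowest cell at 11 hpf thus lay far above the highest cell at 24 hpf. As a share of the summed FPKM of the cell, the 7 genes held 0.306% to 0.398% at 6 hpf, 0.220% to 0.355% at 11 hpf and 0.0224% to 0.0563% at 24 hpf.

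Every one of the 7 genes reached an FPKM of 1 in each cell at 6 and 11 hpf, whereas 4, 3 and 4 of them did so in 24_1, 24_2 and 24_3. Over all genes kept, this level was reached by 72.6% to 76.1% at 6 hpf and by 66.5% to 67.9% at 11 hpf. At 24 hpf it was reached by 51.2%, 64.2% and 61.4% in 24_1, 24_2 and 24_3. Unlike the 7 genes, the genes kept did not all reach it at the earlier stages, so these shares are not a like comparison. Genes that reached it in every earlier cell are compared below, with the zeros. The 3 cells at 24 hpf held different sets. In 24_1 these were birc5a, aurkb, tpx2 and aurka, in 24_2 they were birc5a, tpx2 and aurkb, and in 24_3 they were birc5a, plk1, tpx2 and cdca8. Only birc5a and tpx2 were present in all of them.

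**Figure D1:**
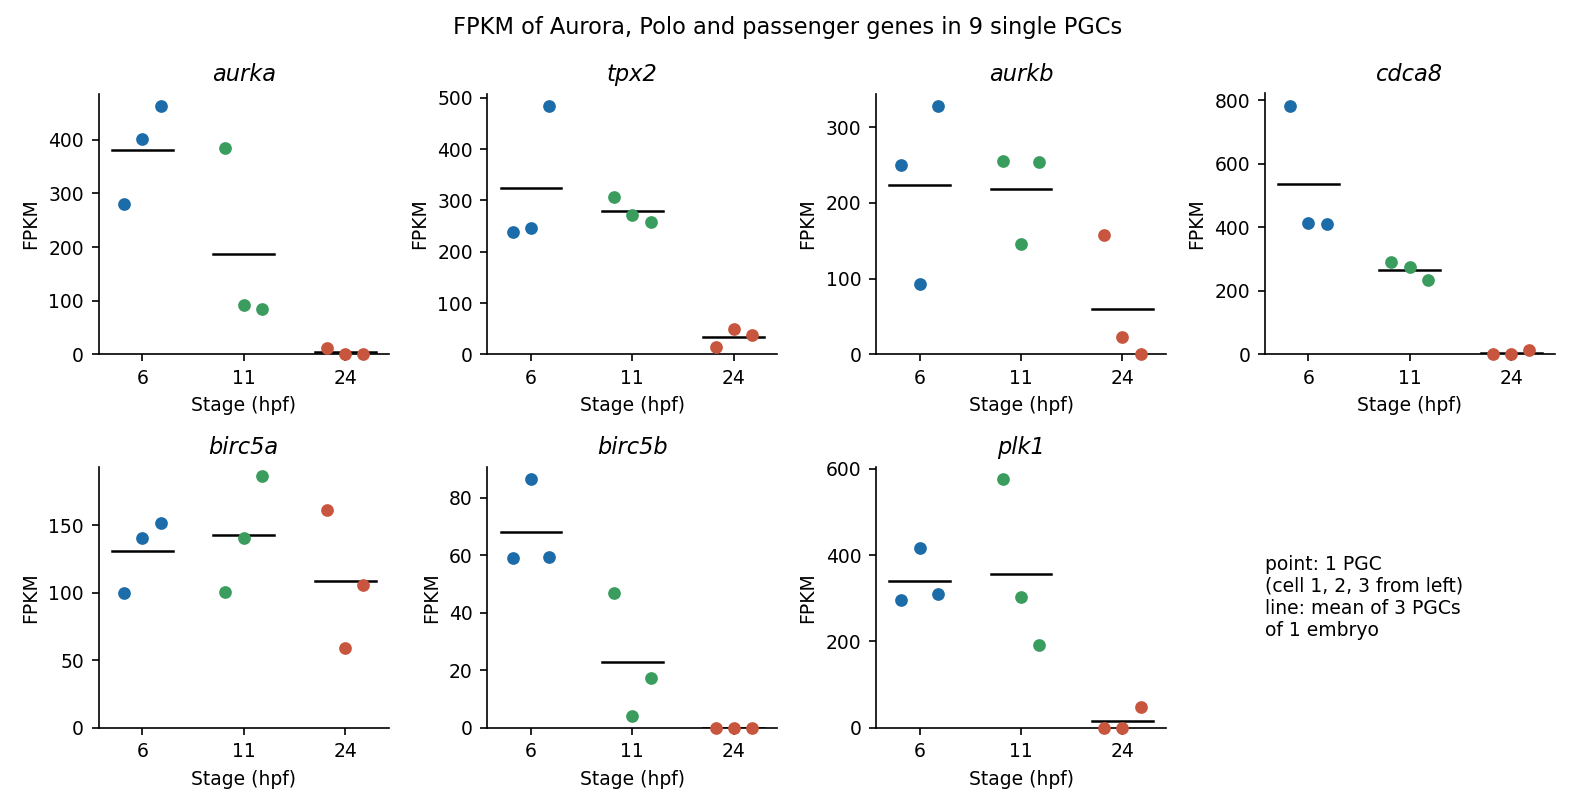
FPKM (vertical axes, linear, from 0) of each of the 7 genes by stage in hpf (horizontal axes). Each point is 1 PGC, in the order of its cell number, and each line is the mean of the 3 PGCs of 1 embryo. The points at 24 hpf are at 0 for birc5b and reach at most 10.9 FPKM for aurka, 15.2 for cdca8 and 47.4 for plk1. Those of birc5a, between 59.0 and 161 FPKM, overlap the earlier stages.

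Aurora A and its activator Tpx2 were both lower in every cell at 24 hpf than in any cell at 11 hpf. The FPKM of aurka (ENSDARG00000012485) was 280.0, 401 and 463 in the 6 hpf cells, followed by 384, 92.1 and 84.7 in the 11 hpf cells. At 24 hpf it was 10.9 in 24_1 and listed at 0 in 24_2 and 24_3. The cells at 11 hpf were unequal, with 11_1 within the range of 6 hpf and the other two below it. On the scale of log2(mean FPKM + 1), used for all differences here, aurka was lower by 5.34 at 24 hpf than at 11 hpf (difference -5.34). The spread between cells, which adds the variances of log2(FPKM + 1) in both stages and takes the square root, was 2.40. The spread is thus taken from logs of single cells and the difference from the log of means, so the measures are unlike. A difference within its spread can lie past it when logs are averaged instead. The difference of aurka was -7.55 without 24_1 and -4.27 without 11_1. Both cells left without 24_1 were at 0, so the size of -7.55 depends on the 1 added to the mean.

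The study measured aurka and cdca8 by single-cell qPCR as well, and the primers are printed because they are the sequences by which transcripts of these genes were detected a second time. The qPCR values were not analysed here. Each primer has 20 bases, written 5ʹ to 3ʹ in lower case.
aurka forward: tggacccaaaagagttcctg
aurka reverse: atccactggtgttggaggag
cdca8 forward: tgcaattgctgggaatcata
cdca8 reverse: ggcaccgatgattgaagagt

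The FPKM of tpx2 (ENSDARG00000078654) was 239, 247 and 485 in the 6 hpf cells, then 306, 272 and 258 in the 11 hpf cells and finally 14.5, 50.1 and 38.3 in the 24 hpf cells. It was the gene with the most even values at 11 hpf, where its mean was 279 ± 24.6 FPKM (SD, n = 3 cells of 1 embryo). At 24 hpf the mean was 34.3 ± 18.1 FPKM, so that the mean at 11 hpf was 8.12 times as high. The difference was -2.99 with a spread of 0.91. Tpx2 transcripts were thus still present in 24_2 and 24_3, the cells in which aurka was listed at 0.

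The passenger complex was followed through its kinase, Borealin and both Survivins. The FPKM of aurkb (ENSDARG00000037640) was 250.0, 93.2 and 328 in the 6 hpf cells and then 255, 146 and 255 in the 11 hpf cells. At 24 hpf it was 158 in 24_1 and 23.2 in 24_2, and it was listed at 0 in 24_3. The value of 24_1 lay above the lowest cell at each of the earlier stages. The difference of -1.84 between 24 and 11 hpf was within its spread of 3.73. With the mean of log values the difference was -3.76, just past that spread. On the scale used elsewhere it was -4.12 without 24_1.

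Borealin was lower in every cell at 24 hpf than in any cell at 11 hpf, by a difference close to that of aurka. The FPKM of cdca8 (ENSDARG00000043137) was 781, 413 and 410.3 in the 6 hpf cells and then 291, 276 and 233 in the 11 hpf cells. At 24 hpf it was 15.2 in 24_3 and listed at 0 in the other cells. The difference was -5.46 with a spread of 2.32, and without 24_3 it was -8.06. With the highest mean of the 7 genes at 6 hpf, cdca8 was the next to last at 24 hpf among those still found.

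The Survivin genes, which are paralogs, differed in whether they were found at 24 hpf. The FPKM of birc5a (ENSDARG00000075621) was 100.04, 141 and 152 in the 6 hpf cells, then 101, 141 and 187 in the 11 hpf cells and finally 161, 59.0 and 106 in the 24 hpf cells. Its stages overlapped throughout, and the difference of -0.39 between 24 and 11 hpf was within its spread of 0.85. The FPKM of birc5b (ENSDARG00000055655) was 59.0, 86.4 and 59.3 in the 6 hpf cells and then 47.1, 4.11 and 17.3 in the 11 hpf cells, and it was listed at 0 in all cells at 24 hpf. For a gene listed at 0 in a whole stage no fold is given. On the log2 scale with a pseudocount of 1 the difference between 24 and 11 hpf was -4.58, and this size depends on the pseudocount. Without 11_1 it was -3.55. Of the summed FPKM of both Survivins, birc5a made up 62.9%, 61.9% and 71.9% in the 6 hpf cells, then 68.1%, 97.2% and 91.5% in the 11 hpf cells and finally all of it at 24 hpf. How reads shared by the paralogs were assigned is not given in the sources used here.

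The Polo kinase gene was among the most abundant of the 7 at 6 and 11 hpf. The FPKM of plk1 (ENSDARG00000058471) was 297, 416 and 309.8 in the 6 hpf cells and then 575, 302 and 191 in the 11 hpf cells. At 24 hpf it was 47.4 in 24_3 and listed at 0 in 24_1 and 24_2. All cells at 24 hpf lay below all cells at 11 hpf, with a difference of -4.41 and a spread of 3.33. Without 24_3 the difference was -8.48, a size that depends on the pseudocount, since both remaining cells were at 0.

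Read against all genes, the difference between 24 and 11 hpf was as follows. A mean lower by at least 1 on the log2 scale was found in 6 of the 7 genes and in 31.5% of the 9329 genes kept. All 3 cells at 24 hpf lay below all 3 cells at 11 hpf in 5 of the 7 genes (aurka, tpx2, cdca8, birc5b and plk1) and in 10.2% of the genes kept. A gene listed at 0 in any cell of the earlier stage cannot be counted this way. The 7 genes were above 0 in every cell at 6 and 11 hpf, but not all genes kept were. The share of 10.2% is therefore not a like comparison, and this limit applies to each share of this kind below. The median difference was -4.41 over the 7 genes and -0.080 over all genes kept. With 24_3 as the only cell at 24 hpf, the median was -4.05 over the 7 genes and -0.44 over all genes kept. Again 6 of the 7 genes were lower by at least 1, but the share of all genes kept was not calculated for this setting. When all values were divided by those of actb1, birc5a passed this limit as well (-1.01), while the median of all genes kept moved to -0.51. The FPKM of actb1 was itself 752 to 1294 in the cells at 24 hpf, against 530 to 880 at 11 hpf.

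Zeros were also read against all genes, since a transcript that was not captured is listed at 0 as well. Of the genes with an FPKM of at least 1 in all 6 cells at 6 and 11 hpf, which include all 7 described here, 14.9% were listed at 0 in at least 2 of the 3 cells at 24 hpf. Among the 7 genes this held for 4 (aurka, cdca8, birc5b and plk1). When a mean of at least 100 FPKM over those 6 cells was also asked for, a limit chosen after the values were seen, the share was 6.03% of 1011 genes, against 3 of the 6 genes described here that reached it. All 3 cells were at 0 for birc5b and for 4.43% of the genes at an FPKM of at least 1 in the 6 earlier cells.

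Between 11 and 6 hpf the differences were smaller. They ran from -1.54 to 0.13, with a median of -0.22 over the 7 genes and 0.029 over all genes kept. A mean lower by at least 1 was found in aurka, cdca8 and birc5b, which is 3 of 7 genes, and in 21.8% of the genes kept. The differences of aurka (-1.03) and cdca8 (-1.002) lay just past this limit, and without 11_3 birc5b (-1.38) was the only gene past it. Without 11_1 the difference was -2.10 for aurka and -2.56 for birc5b. Dividing by actb1 raised the count to 5 genes, but it also moved the median of all genes kept to -0.99. The share of all genes kept that passed the limit after this division was not calculated. The FPKM of actb1, the study's reference gene, was itself 530 to 880 in the cells at 11 hpf and 248 to 449 at 6 hpf.

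All cells at 11 hpf lay below all cells at 6 hpf for cdca8 and birc5b, which is 2 of 7 genes, against 6.96% of the genes kept. For cdca8 the difference exceeded its spread of 0.56, while that of birc5b (-1.54) was within its spread of 1.65. With the mean of log values the differences were -0.94 for cdca8 and -2.05 for birc5b, both past these spreads. The difference of aurka (-1.03) was within its spread of 1.27, and its cells overlapped. With the mean of log values it was -1.36, past that spread. The differences of tpx2 (-0.22), aurkb (-0.033), birc5a (0.13) and plk1 (0.064) were each within their spread.

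Over the whole period, 24 hpf against 6 hpf, the same cells at 24 hpf entered as above, so these values are no independent check. The differences were -6.37 for aurka, -3.20 for tpx2, -1.87 for aurkb, -6.47 for cdca8, -0.26 for birc5a, -6.11 for birc5b and -4.35 for plk1. A mean lower by at least 1 was found in 6 of 7 genes and in 33.3% of the genes kept, and all cells were lower in 5 of 7 genes and in 14.6% of the genes kept. The differences of aurkb and birc5a were within their spreads of 3.82 and 0.79. Without 24_1 the difference was -8.58 for aurka and -4.16 for aurkb, and without 24_3 it was -9.07 for cdca8 and -8.42 for plk1. Apart from that of aurkb, these sizes depend on the pseudocount, since both remaining cells were at 0.

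**Figure D2:**
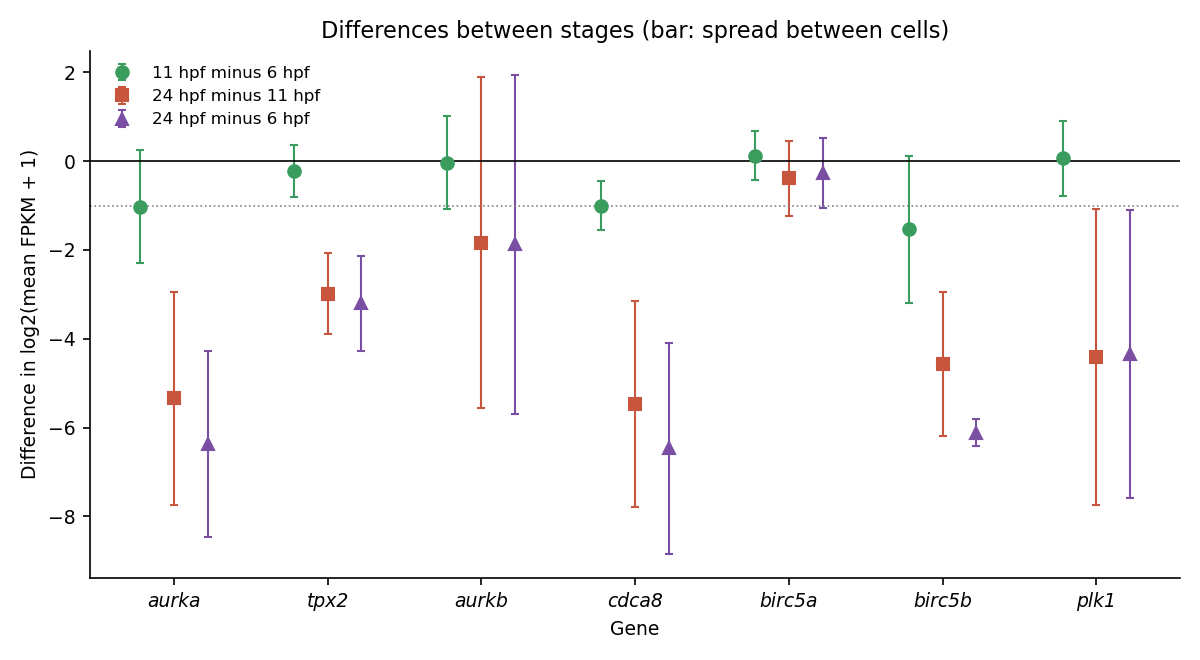
Difference in log2(mean FPKM + 1) between stages (vertical axis, later minus earlier) for each of the 7 genes (horizontal axis). Bars show the spread between cells, and the dotted line marks a difference of -1. The values of 24 minus 11 hpf lie below -1 for each gene except birc5a at -0.39, and the bars of aurkb reach past 0.

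The order of the genes by mean FPKM also changed with the stage. At 6 hpf it was cdca8 (535), aurka (381), plk1 (341), tpx2 (324), aurkb (224), birc5a (131) and birc5b (68.3). Neighbours in this order differed by less than their spread, except birc5a and birc5b. At 11 hpf it was plk1 (356), tpx2 (279), cdca8 (267), aurkb (219), aurka (187), birc5a (143) and birc5b (22.8), and again the step to birc5b was the only one beyond the spread.

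At 24 hpf birc5a was the gene with the highest value in each of the 3 cells, but only narrowly in 24_1 (161 FPKM, against 158 for aurkb). The step in mean from birc5a to aurkb, the next gene at 24 hpf, was 0.84 and within the spread of 3.77. At 6 hpf birc5a made up 4.99% to 7.82% of the summed FPKM of the 7 genes. It made up 5.14%, 11.4% and 15.2% in 11_1, 11_2 and 11_3, and 46.8%, 44.6% and 51.1% in 24_1, 24_2 and 24_3. At the earlier stages the leading gene was cdca8 in 6_1, tpx2 in 6_3 and 11_3 and plk1 in 6_2, 11_1 and 11_2. The FPKM of birc5a itself differed between stages by less than its spread.

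Of the FPKM of both Aurora kinases, aurkb made up 47.2%, 18.8% and 41.5% in the 6 hpf cells and then 39.9%, 61.4% and 75.0% in the 11 hpf cells. It made up 93.6% in 24_1 and all of it in 24_2, and in 24_3 both kinases were listed at 0. Cells at 6 hpf thus held more aurka than aurkb, and cells at 24 hpf with any Aurora kinase held more aurkb.

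**Figure D3:**
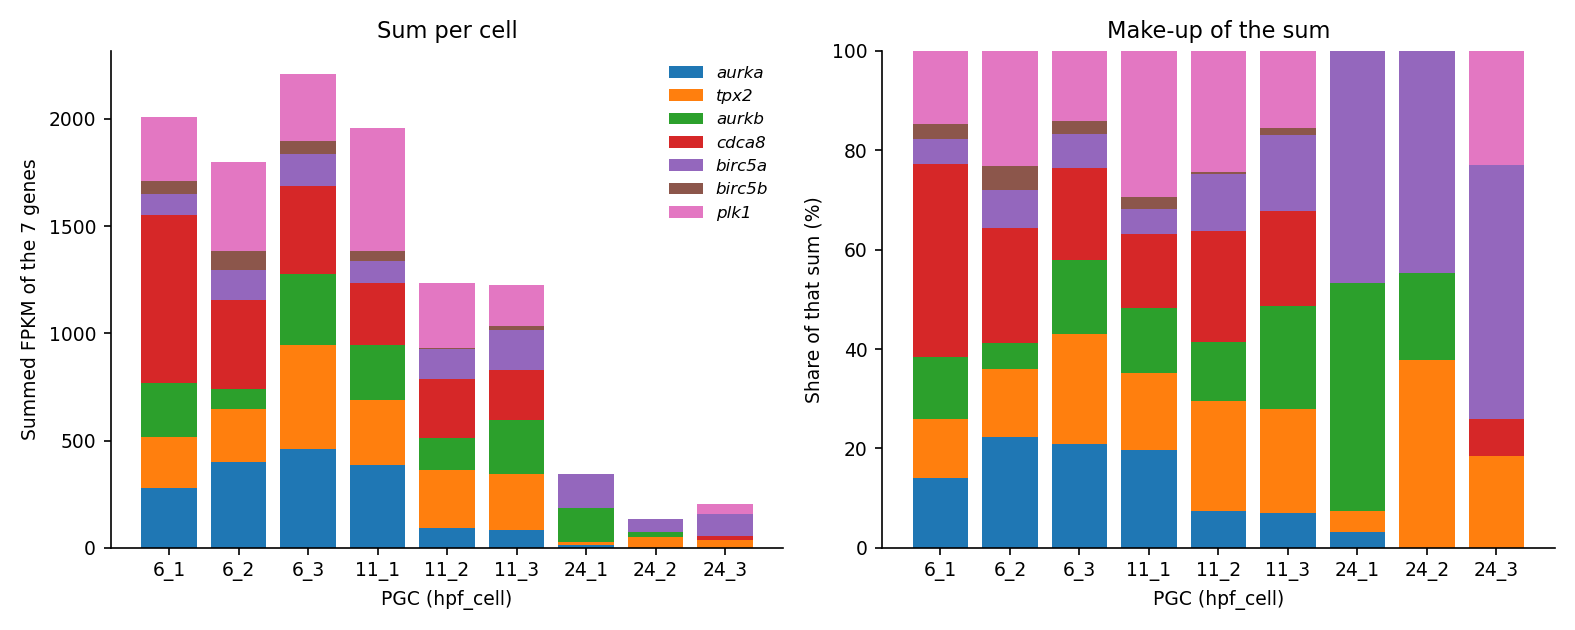
Summed FPKM of the 7 genes in each PGC (left, linear axis from 0) and the share of each gene in that sum in percent (right), for cells named by hpf and cell number. The sum lies between 132 and 345 FPKM at 24 hpf, below every earlier cell, and birc5a makes up 44.6% to 51.1% of it.

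Genes that work with these kinases were taken from a list of 31 symbols. Of these, 30 were matched and 26 were among the genes kept. Those not kept were sgol1, plk2a, plk2b and cdc25d, the last listed at 0 in all 9 cells. Between 24 and 11 hpf 25 of the 26 genes were lower in the mean and 1 was higher, 16 were lower by at least 1 and none was higher by at least 1, with a median of -1.51. All cells at 24 hpf lay below all cells at 11 hpf in 10 of them. Over all genes kept, 31.5% were lower by at least 1 and 10.2% had all cells lower, with a median of -0.080. No share over all genes kept was calculated for genes lower or higher in the mean. The same holds for genes higher by at least 1, here and between 11 and 6 hpf. Between 11 and 6 hpf the median was -0.20, with 6 of the 26 genes lower and 3 higher by at least 1, and the lower count was near the 21.8% of all genes kept.

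The partners with the largest differences between 24 and 11 hpf were prc1a, bora and ccnb1. The FPKM of prc1a, which bundles microtubules of the spindle midzone, was listed at 0 in all cells at 24 hpf, against 135, 97.8 and 110.4 at 11 hpf, and the difference was -6.85. That of bora, the cofactor through which Aurora A activates Polo kinase, was likewise listed at 0 in all cells at 24 hpf, against 33.1, 16.4 and 59.7 at 11 hpf. That of ccnb1, the B-type cyclin of mitotic entry, was listed at 0 in 24_1 and was 33.9 in 24_2 and 30.4 in 24_3, against 471, 819 and 509 at 11 hpf.

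The partners with the smallest differences were plk3, cdc25b and ect2. The FPKM of plk3, another Polo-like kinase, was listed at 0 in 24_1 and 24_2 and was 18.03 in 24_3, against 4.07, 11.9 and 4.14 at 11 hpf. That of cdc25b, a phosphatase that activates Cdk1, was 15.9, 53.5 and 51.5 at 24 hpf, against 70.3, 79.0 and 0.802 at 11 hpf. That of ect2, which promotes furrowing, did not pass 7.13 in any cell. For these 3 genes cells of both stages overlapped.

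A few partners were picked out after their values were seen. Cdk1, the kinase bound by cyclin B, had an FPKM of 186, 376 and 32.1 at 24 hpf, against 262, 301 and 476 at 11 hpf, so its transcript remained in 24_1, where ccnb1 was listed at 0. The kinesin gene kif20a, which in human cells carries the passenger complex to the midzone, was the only one of the 26 partners kept that was higher in the mean at 24 hpf than at 11 hpf, with a difference of 0.52 and a spread of 3.94. Its value was 44.8 in 24_2 and at most 1.57 in the other cells of that stage. Of the partners not kept, plk2a was at 8.80 and plk2b at 0.170 in 24_1, and both were listed at 0 in the other 8 cells. The gene of the second Borealin, cdca9, was at 170.2 in 6_1, 14.4 in 6_3 and 42.4 in 11_1 and listed at 0 elsewhere. The kinase of centriole duplication, plk4, was listed at 0 in all cells of 24 hpf, against 10.02, 19.5 and 13.04 in those of 11 hpf.

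**Figure D4:**
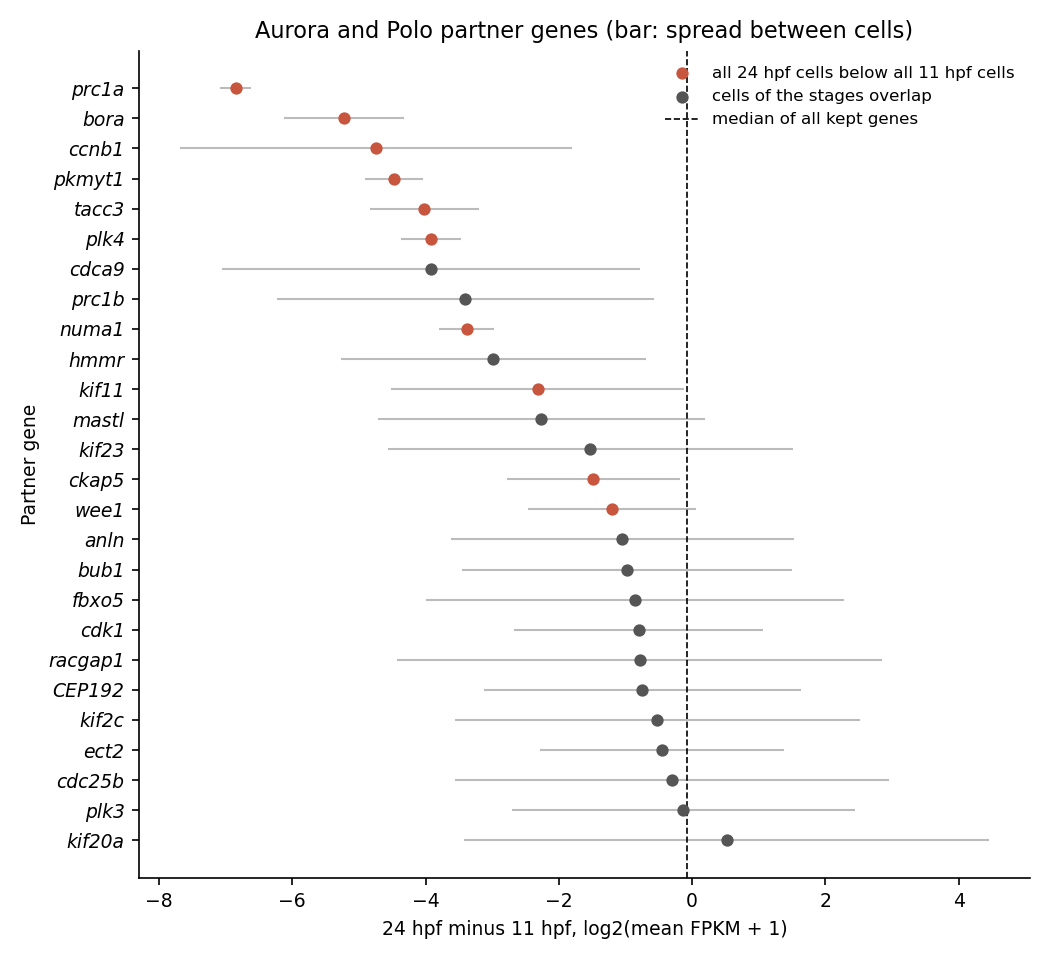
Difference in log2(mean FPKM + 1) between 24 and 11 hpf (horizontal axis) for the 26 partner genes kept (vertical axis). Grey bars show the spread between cells, red points are the 10 genes whose cells at 24 hpf all lay below those at 11 hpf, and the dashed line is the median of all genes kept at -0.080. The values run from -6.85 for prc1a to 0.52 for kif20a.

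Genes of DNA replication and nucleotide supply included both lower and higher members in the same cells. The list of 12 symbols matched 13 rows, rrm2 having 2 rows, all of them kept. Between 24 and 11 hpf 6 of the 13 rows were lower and 3 higher by at least 1, with a median of -0.83, against 31.5% lower and a median of -0.080 over all genes kept. The share of all genes kept that were higher by at least 1 was not calculated, so the higher count has no background beside it. The FPKM of cdc6, which loads the replicative helicase, was listed at 0 in all cells at 24 hpf, against 93.9, 17.8 and 35.0 at 11 hpf. That of mcm4, a subunit of this helicase, was 27.7 in 24_1, 24.5 in 24_2 and listed at 0 in 24_3, against 5.78 in 11_2 and a listing at 0 in 11_1 and 11_3, while mcm2 had a difference of -0.039. The 13 rows summed to between 779 and 811 FPKM in the cells at 24 hpf, against 1405 to 1583 FPKM at 11 hpf.

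The genes whose pattern over the 9 cells was most like that of the 7 were found by Pearson correlation of log2(FPKM + 1) with the mean of the 7 genes. They were si:ch73-299h12.3 (r = 0.991), fam212aa (0.990), slc35f6 (0.988), si:dkey-90l23.1 (0.988) and cenpl (0.987), the last a gene of the centromere. The 9 cells come from 3 embryos and share the difference between stages, so these coefficients are descriptions only. At 24 hpf each of the first 4 was listed at 0 in every cell, and cenpl was at 1.83 in 24_3. With the mean of the other 6 genes, r was 0.94 for aurka, 0.93 for birc5b, 0.92 for cdca8, 0.91 for tpx2, 0.84 for plk1, 0.59 for aurkb and 0.41 for birc5a.

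Other features of the cells moved with the stage. The share of the genes kept that reached an FPKM of 1, given above, was lowest in 24_1. Of 11 germ cell markers, between 8 and 10 had an FPKM of at least 10 in every cell, and their sum was 11602 to 13963 at 24 hpf, against 20930 to 44649 at 11 hpf. This sum is mostly nanos3, which may include reads of the transgene. Between 24 and 11 hpf 9 of the 11 germ cell markers were lower by at least 1, and all cells were lower in 9 of the 11. This compares with 6 and 5 of the 7 genes described here and with 31.5% and 10.2% of all genes kept. The median was -1.80 over the markers, -4.41 over the 7 genes and -0.080 over all genes kept. Of 9 markers of skeletal muscle, 6 in 24_1 and 7 in 24_2 were at 10 or more, with sums of 597 and 2396, whereas 24_3 had none at 10 or more and a sum of 9.56. The highest sum at 6 and 11 hpf was 25.9. Of 5 epidermal markers, up to 1 was at 10 or more in a cell at 6 hpf. At 11 hpf 5 were in 11_1, 1 in 11_2 and 2 in 11_3, with sums of 222, 28.0 and 54.7. At 24 hpf 2 were in 24_1, 0 in 24_2 and 1 in 24_3, with sums of 211, 0 and 29.9. Of the cells at 11 hpf, 11_1 had the highest FPKM of each gene described here except birc5a, for aurkb only narrowly. Of 5 markers of blood and endothelium none reached 10 in any cell. Of the cells at 24 hpf, 24_3 was the only one with plk1 and cdca8 above 0, and 24_1 the only one with aurka above 0. The FPKM of aurkb was 158 in 24_1 and 23.2 in 24_2, the cells with muscle markers at 10 or more. It was listed at 0 in 24_3. The part of the muscle markers, of the epidermal markers and of the number of genes detected in these differences was not tested. The FPKM is relative to all fragments of a cell, so that fewer transcripts of these genes and more of others cannot be told apart.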

How the data were processed

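RNA of each single PGC was amplified by a variant of Smart-seq2, giving 9 libraries. The authors used Trimmomatic for trimming, HISAT2 2.0.5 for mapping to danRer10 and StringTie 1.3.3 for quantification over Ensembl genes. They deposited FPKM values for 32266 genes, without filtering, counts or coordinates, so the depth behind a gene is unknown. Sums per cell were 548917 to 613048 FPKM.

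Calculations ran in Python 3.11.15 (numpy 2.4.6, pandas 2.3.3) and figures in matplotlib 3.10.9. The filter of the study, an FPKM of 1 or more in 3 or more cells, was applied. The stage difference was log2(mean FPKM + 1), later minus earlier. Because a stage is 1 embryo, nothing was tested. The calculation was checked on simulated data.

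The members and lists were chosen with earlier results of these data known. Symbols were matched exactly and otherwise without regard to case, and gsg2 and hbae1.1 were not matched. The named genes are the 7 members, actb1, the partner and replication genes with the largest and smallest difference between 24 and 11 hpf, and the 5 genes closest in pattern; cdk1, kif20a, cdca9, plk4, plk2a, plk2b and the genes named as not kept were chosen after their values were seen.

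Alternatives were other pseudocounts, thresholds and filters, equal totals per cell (TPM), median-of-ratios factors, division by actb1, the mean of log values, leaving out each cell, and, added after seeing the data, 24_3 alone at 24 hpf. Primer sequences were taken from the study's supplement.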

Additional observations from a re-analysis of the deposited data

How the results depend on the processing

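The count of 6 of 7 genes lower by at least 1 between 24 and 11 hpf, and between 24 and 6 hpf, was 6 or 7 under every alternative run. The median between 24 and 11 hpf was -2.70 with a pseudocount of 10 and otherwise between -4.71 and -3.55, the range on leaving out single cells. Between 24 and 6 hpf it ran from -5.89 to -3.79 on leaving out single cells. Over all alternatives it ran from -6.09 with the mean of log values to -2.97 with a pseudocount of 10. Between 11 and 6 hpf it ran from -0.46 (without 11_1) to 0.00028 (without 6_3) on leaving out single cells, and the count of genes lower by at least 1 ran from 1 (without 11_3) to 3. That count was 1 with a pseudocount of 10 and 1 with equal totals per cell, and division by actb1 gave a count of 5 and a median of -1.19. Division by actb1 moved the median of all genes kept to -0.99 between 11 and 6 hpf, to -0.51 between 24 and 11 hpf and to -1.54 between 24 and 6 hpf. No alternative turned a difference of at least 1 round. For single genes 20 of 266 values moved by more than the spread between cells. Counts of genes at or above an FPKM of 1, 5 or any value above 0 stayed within 1 of each other in every cell. No paired analysis was possible because no result comes from a test and the cell numbers only name cells of different embryos. With 3 cells of 1 embryo a stage, differences between embryos cannot be told apart from those between stages.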
